A study of Mus musculus with 2 samples.

Results

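The 7 mouse genes for cyclin-dependent kinase (CDK) inhibitors were examined: Cdkn1a, Cdkn1b and Cdkn1c of the CIP/KIP family, and Cdkn2a, Cdkn2b, Cdkn2c and Cdkn2d of the INK4 family. They were taken by gene symbol, with every probe set that carries 1 of these symbols alone, which gave 9 probe sets of 34945 with a single symbol and 7 genes of 18193. The series compared T helper 2 (Th2) cells of Ecm1 knockout mice (Th2 KO) with those of wild-type mice (Th2 WT), 1 Affymetrix array each, on the C57BL/6 strain. Both groups came from animals labelled female, raised to 6 weeks. Spleen cells positive for CD4 were cultured for 4 days in both groups with anti-CD3 and anti-CD28, which stimulate T cells, with IL-4, and with antibodies against IFN-γ and IL-12. The sources used here do not give the cells in which Ecm1 was deleted or how many animals an array stands for. With 1 array a group there was no replicate and no test, and every difference describes these 2 arrays.

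CDK inhibitors are small proteins that hold back the kinases which drive a cell from G1 into S phase. INK4 proteins bind CDK4 and CDK6 and keep D-type cyclins off them, while CIP/KIP proteins bind complexes of a cyclin and a CDK, above all those with CDK2. In T cells p27, made from Cdkn1b, is known for keeping resting cells out of the cycle and is removed after stimulation through the T cell receptor and IL-2, and p18, made from Cdkn2c, is known for restraining division of T cells and for stopping the cycle in plasma cells.

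Promoter windows are shown because the results below turn on Cdkn1a and Cdkn2a, each of which is transcribed from 2 start sites in the RefSeq table (build GRCm38.p6). Each window runs from 250 bases before to 50 bases after the annotated start, 5′ to 3′ on the gene's strand. For Cdkn1a the upstream window is shown (chr17:29090729-29091028, plus strand), with capitals marking a pair of p53 core elements, CATG followed after 6 bases of any kind by another CATG. The downstream Cdkn1a window (chr17:29093519-29093818, plus strand) holds no such pair and is not shown. For Cdkn2a both are shown: the window at the upstream start, which as background knowledge begins the transcript of the p19ARF protein (chr4:89294570-89294869, minus strand), with capitals marking an E2F element, and the window at the downstream start, which begins the transcript of the INK4a protein p16 (chr4:89282143-89282442, minus strand), with no element in capitals.
Cdkn1a, upstream start: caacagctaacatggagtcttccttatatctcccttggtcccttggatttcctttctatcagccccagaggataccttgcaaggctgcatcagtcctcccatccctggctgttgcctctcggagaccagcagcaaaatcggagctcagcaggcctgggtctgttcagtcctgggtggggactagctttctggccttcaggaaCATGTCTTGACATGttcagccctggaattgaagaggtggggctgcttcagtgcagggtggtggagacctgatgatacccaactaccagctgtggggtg
Cdkn2a, upstream start: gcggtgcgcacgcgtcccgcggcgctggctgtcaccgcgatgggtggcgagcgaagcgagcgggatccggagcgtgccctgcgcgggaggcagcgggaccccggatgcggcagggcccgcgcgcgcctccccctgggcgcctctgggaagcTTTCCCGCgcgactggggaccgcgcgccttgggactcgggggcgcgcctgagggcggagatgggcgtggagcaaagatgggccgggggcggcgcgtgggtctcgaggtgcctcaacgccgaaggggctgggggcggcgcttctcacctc
Cdkn2a, downstream start: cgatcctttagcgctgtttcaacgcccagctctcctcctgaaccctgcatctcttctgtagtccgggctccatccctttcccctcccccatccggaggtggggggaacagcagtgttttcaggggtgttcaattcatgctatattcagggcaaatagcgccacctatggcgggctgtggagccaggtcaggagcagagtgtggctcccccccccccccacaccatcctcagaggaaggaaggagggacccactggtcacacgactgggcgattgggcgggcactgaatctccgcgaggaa

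Of the 7 genes, 6 had promoter windows in the table, 9 windows in all, and Cdkn1c had none. The p53 core pair was searched on both strands and lay in 1 of the 9 windows, at position 203 of the upstream Cdkn1a window, and in 0.712% of all 32851 promoter windows. The E2F elements TTTCCCGC and TTTGGCGC were searched on both strands and lay in 1 of the 9, at position 152 of the upstream Cdkn2a window, and in 1.56% of all windows. Other motifs searched on both strands were the FOXO element GTAAACA, in 0 of the 9 windows and 3.65% of all, the MYC E-box CACGTG, in 1 of the 9 (a Cdkn2c window) and 7.15% of all, and the Sp1 box GGGCGG, in 7 of the 9 and 35.7% of all. The starts of Cdkn1a lie 2790 bases apart and those of Cdkn2a 12427 bases apart. The upstream Cdkn2a window held 45 CpG dinucleotides and 77% G and C, against 12 and 60.3% at the downstream start, and a median of 7 and 52.7% over all windows. A match of letters is a description and not a binding site.

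Signals ran on a linear scale, and the median of an array, 65.5 in Th2 KO and 69.2 in Th2 WT, was treated as the floor of measurement. Differences are log2 of Th2 KO over Th2 WT, centred on the median of -0.10 over 20834 probe sets that reached the floor on both arrays (measured on both). The 20834 leave out control probe sets. Across these probe sets and any controls that also reached the floor on both arrays, signals correlated at r = 0.94. Probe sets are not independent replicates. The single Ecm1 probe set read 19.3 in Th2 KO and 29114.7 in Th2 WT, and where it lies relative to the deletion is unknown here. The Th2 KO array went against the female label, since the Y-linked Eif2s3y read up to 2214.4 in Th2 KO and 25.0 in Th2 WT, and Kdm5d up to 410.0 in Th2 KO and 20.3 in Th2 WT. Xist, the RNA of the inactive X chromosome, was nonetheless present on both, at 8715.3 in Th2 KO and 19739.9 in Th2 WT by its brightest probe set. Sex and genotype therefore cannot be told apart in any difference below. The sample descriptions name liver, but none of the 5 hepatocyte genes analysed reached the floor on either array, while all 8 T cell genes analysed did so on both. Probe sets of the same gene give the only internal measure of error. Over 4657 genes the gap in log2 difference between a gene's 2 brightest probe sets was taken. The SD of this gap, divided by the square root of 2 to stand for a single probe set, was 0.36. It was 0.44 where the dimmer of the 2 lay in the lowest of 4 equal signal groups and 0.26 in the highest. These SDs leave out the error of animals, cultures and arrays.

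Of the 7 inhibitors, 3 were at least 2-fold higher in Th2 KO (Cdkn2a, Cdkn1a and Cdkn2b), the other 4 lay within 2-fold, and none was lower by 2-fold or more. Over all 11265 genes that reached the floor on either array, 7.37% were at least 2-fold higher in Th2 KO, and 4.45% were lower by as much. The CIP/KIP family had 1 of 3 genes past 2-fold and the INK4 family 2 of 4, all higher. The 6 inhibitors measured on both arrays had a median log2 difference of 0.51, against 0.04 over all 10144 such genes, and 2 of the 6 were at least 2-fold higher, where 7.15% of such genes were. Cdkn1b and Cdkn2d were the 2 inhibitors below 0. All 8 probe sets other than that of Cdkn2a reached the floor on both arrays.

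**Figure D1:**
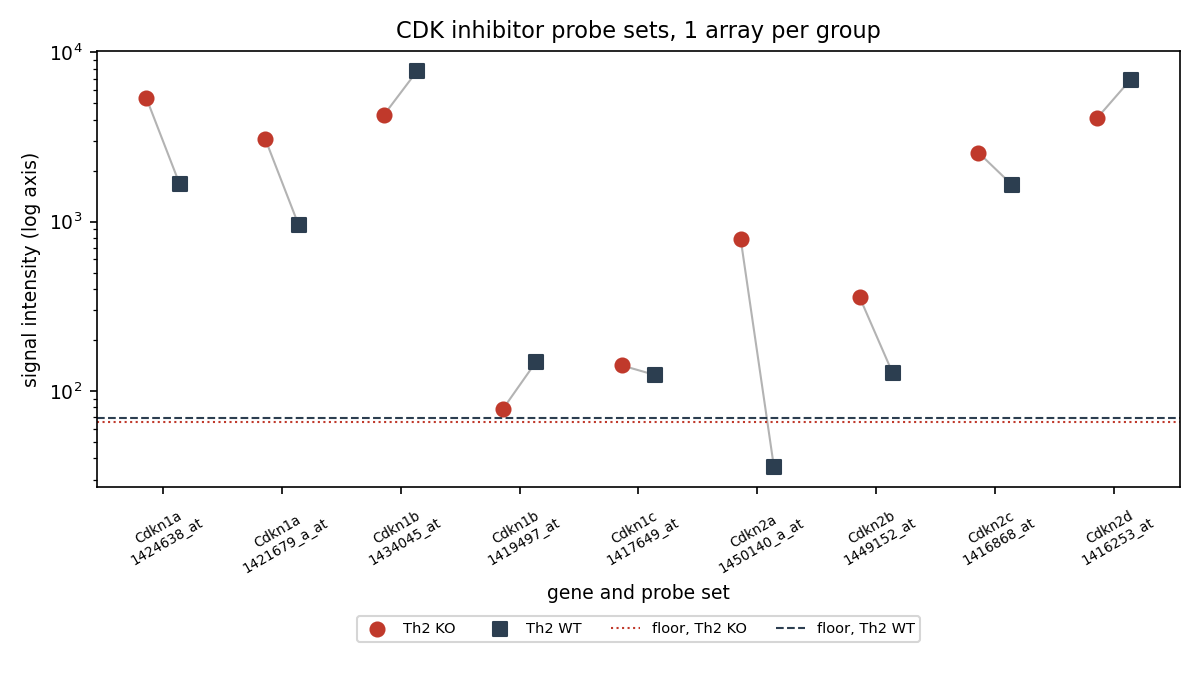
Signal intensity (log axis) of each of the 9 CDK inhibitor probe sets, with the Th2 KO array as circles on the left and the Th2 WT array as squares on the right of each pair, and the floor of each array as a horizontal line. The Th2 WT signal of Cdkn2a is the only point below the floor, and both probe sets of Cdkn1a are higher in Th2 KO while both of Cdkn1b are lower there.

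Cdkn1a encodes p21, a target of p53 that blocks cyclin-CDK complexes and binds PCNA. Its probe set 1424638_at read 5359.5 in Th2 KO and 1665.6 in Th2 WT, and its other probe set, 1421679_a_at, read 3077.6 in Th2 KO and 958.8 in Th2 WT. Both were higher in Th2 KO by close to the same factor. The centred log2 differences were 1.79 and 1.79, or 3.46-fold and 3.45-fold, and lay 0.0035 apart. By its brighter probe set Cdkn1a ranked 146th from the top of the 10144 genes measured on both arrays, with 1.43% of them higher. Of 305 genes at least 2-fold higher by their brightest probe set and with another one measured, 58.0% were also past 2-fold by that other one, as Cdkn1a was. The suffix _a_at of 1421679_a_at marks probe sets that match several transcripts of 1 gene. For 1424638_at, which lacks it, the probe positions are not known here. The values are therefore not assigned to either start site.

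Cdkn1b encodes p27, the inhibitor that is abundant in resting T cells. Probe set 1434045_at read 4281.5 in Th2 KO and 7798.6 in Th2 WT, and the dimmer 1419497_at read 78.4 in Th2 KO, just over the floor, and 149.3 in Th2 WT. Both probe sets were lower in Th2 KO and neither was past 2-fold. The log2 differences were -0.76 and -0.83, with 8.48% of all genes lower than the brighter one. Between Cdkn1a and Cdkn1b the log2 differences of the brightest probe sets lay 2.55 apart, with opposite signs.

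Cdkn1c encodes p57, an inhibitor expressed from the maternal copy in mouse. Its probe set 1417649_at read 141.6 in Th2 KO and 124.3 in Th2 WT, close to the floor on both arrays. The log2 difference was 0.29. This was smaller than the SD estimated above for a single probe set, 0.36 over all pairs and 0.44 in the lowest signal group.

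Cdkn2a encodes both p16, which binds CDK4 and CDK6, and p19ARF, which binds MDM2 and so stabilises p53. Its only probe set, 1450140_a_at, read 788.6 in Th2 KO, 12.0 times the floor of that array, and 35.5 in Th2 WT, below the floor of 69.2. Set against that floor, Cdkn2a was at least 12.2-fold higher in Th2 KO (log2 difference at least 3.61). Among 639 genes that reached the floor in Th2 KO alone, of which 16.4% were at least 2-fold higher by the same kind of bound, 1 gene had a larger bound. The transcripts of p16 and p19ARF share exons, the files give no probe positions, and the value is therefore not assigned to either protein. With the floor at the 70th percentile of each array, 280.6 in Th2 KO and 308.8 in Th2 WT, the log2 bound was 1.43.

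Cdkn2b encodes p15, an INK4 protein known as a target of TGF-β in epithelial cells. Its probe set 1449152_at read 358.9 in Th2 KO and 127.0 in Th2 WT, the Th2 WT value being 1.84 times the floor. The log2 difference was 1.60, or 3.03-fold, and 2.12% of all genes measured on both arrays were higher. Genes measured on both arrays were also split into 4 equal groups by their own signal, which are not the groups used for the SD. Cdkn2b lay in the dimmest, where 7.89% of genes were at least 2-fold higher in Th2 KO. At a floor of the 70th percentile the Th2 WT signal was under it, so that only a bound of 0.29 remained and the 2-fold call ended.

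Cdkn2c encodes p18 and Cdkn2d the INK4 protein p19, a different protein from p19ARF. Cdkn2c read 2558.9 in Th2 KO and 1656.4 in Th2 WT, a log2 difference of 0.73, with 13.5% of genes higher. Cdkn2d read 4100.1 in Th2 KO and 6894.6 in Th2 WT, a log2 difference of -0.65, with 11.6% of genes lower. Both lay in the brightest of the 4 groups formed by a gene's own signal and within 2-fold, on opposite sides of 0. At a threshold of 1.5-fold, 4 inhibitors were higher, with Cdkn2c added, and 2 were lower, Cdkn1b and Cdkn2d, where 18.5% of all genes were higher and 13.4% lower.

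**Figure D2:**
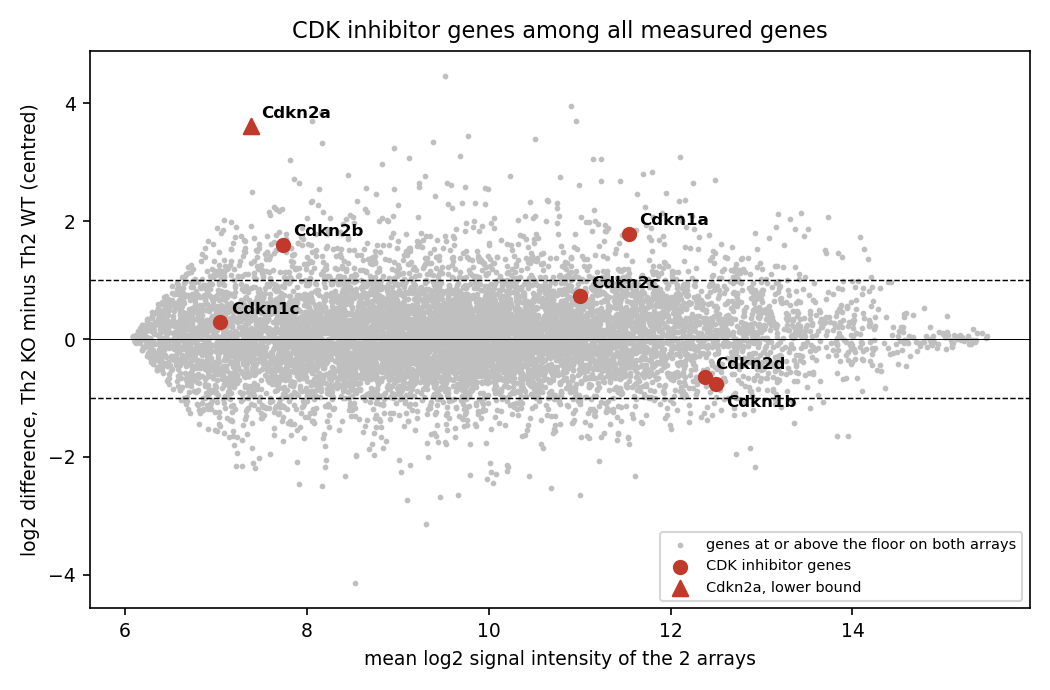
Centred log2 difference, Th2 KO minus Th2 WT, against the mean log2 signal of the 2 arrays for 10144 genes (grey) and the 7 CDK inhibitors (red), with dashed lines at 2-fold. Cdkn1a and Cdkn2b lie above the upper line at 1.79 and 1.60, the triangle of Cdkn2a is a lower bound of 3.61, and the other 4 lie between the lines.

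**Figure D3:**
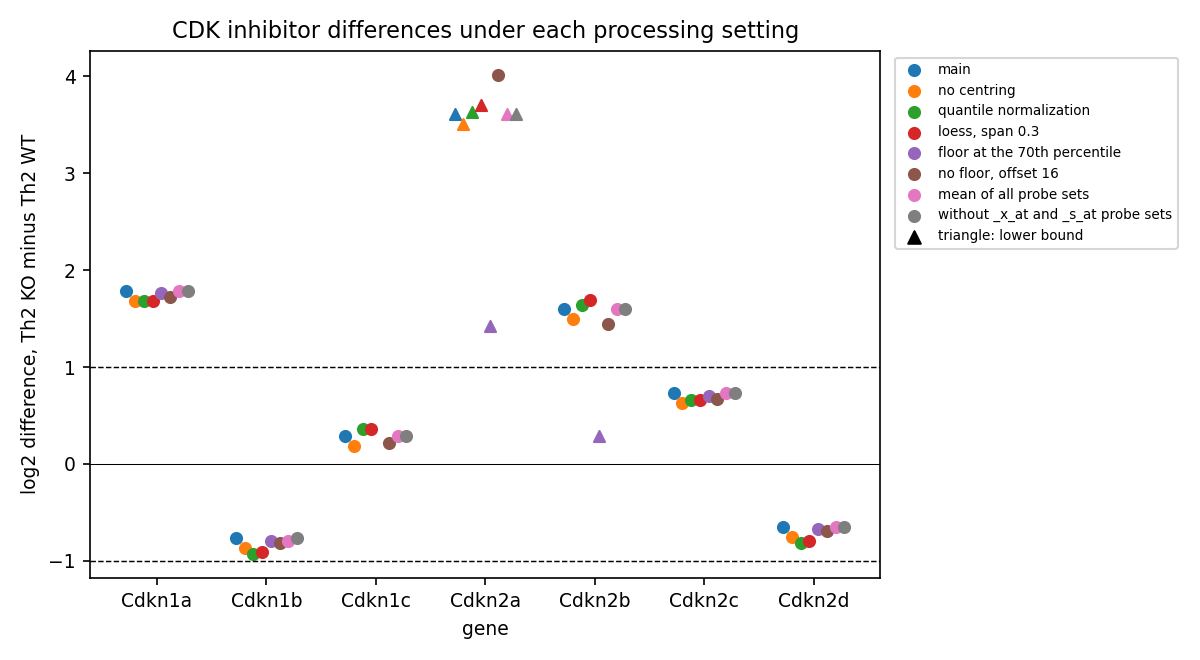
Log2 difference of each CDK inhibitor under the main setting and 7 alternatives, with triangles for lower bounds and dashed lines at 2-fold. Cdkn1a stays between 1.68 and 1.79 and Cdkn1b between -0.93 and -0.76, while Cdkn2a and Cdkn2b drop to bounds of 1.43 and 0.29 at the higher floor, under which Cdkn1c has no value.

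The kinases that the INK4 proteins bind differed little. Cdk4 read 2726.9 in Th2 KO and 2707.6 in Th2 WT (log2 difference 0.11), and Cdk6 read 7408.1 in Th2 KO and 7204.7 in Th2 WT (0.14). Cdk2, the main partner of CIP/KIP proteins, read 1147.9 in Th2 KO and 1236.1 in Th2 WT (0.00). The E cyclins that activate CDK2 were both past 2-fold higher. Ccne2 read 855.3 in Th2 KO and 276.1 in Th2 WT (1.73), and Ccne1 read 1173.4 in Th2 KO and 575.6 in Th2 WT (1.13). Of the D cyclins, which activate CDK4 and CDK6, Ccnd2 was at 0.51, with its 6 other measured probe sets between 0.21 and 0.76. Ccnd1, near the floor, was at 0.65, but its other measured probe set was at 0.03. Ccnd3 was at -0.61, with its 2 other measured probe sets at -2.07 and 0.01. Of the 18 genes on the list of cyclins, kinases and related regulators, 2 passed 2-fold, Ccne1 and Ccne2, and the other 16 lay within it, with a median of 0.28. The count of this list and of each list below stands beside the shares over all 11265 genes that reached the floor on either array. Of those, 7.37% were at least 2-fold higher in Th2 KO and 4.45% lower by as much. Cdk1, which drives mitosis, was at 0.98, and Pcna, the replication clamp that p21 binds, at 0.66.

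Among the pocket proteins and E2F factors, which lie downstream of these kinases, 2 of 13 genes passed 2-fold, upward in Th2 KO, and 11 lay within it, with a median of 0.14. Past 2-fold were the repressor E2F genes E2f8, at 1521.1 in Th2 KO and 720.8 in Th2 WT (1.18), and E2f7, at 521.3 in Th2 KO and 265.0 in Th2 WT (1.08). Tfdp1, a partner of E2F proteins, was at 0.72 and Rb1, the retinoblastoma gene, at 0.35. Rbl2, which encodes the p130 pocket protein of resting cells, read 2298.0 in Th2 KO and 4554.8 in Th2 WT (-0.88), with -1.05 in its other probe set.

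Cell division genes were measured as a list because CDK inhibitors act against division. Of 21 such genes analysed, 5 were higher in Th2 KO by 2-fold or more (Tyms by a bound of 1.04) and 16 lay within 2-fold. All 20 that reached the floor on both arrays lay above 0, with a median of 0.82, which was 0.68 with probe sets averaged and no lower in the other settings. Cdc6, which loads the replicative helicase, read 1767.1 in Th2 KO and 474.0 in Th2 WT (2.00). The helicase genes Mcm5 and Mcm2 were at 1.39 and 1.18, and Rrm2, a subunit of ribonucleotide reductase, at 1.24. Cdkn1a, Cdkn2a and Cdkn2b were thus higher on the same array as these division genes.

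Regulators of Cdkn1b and of p27 protein were mixed. Of 16 genes analysed, Skp2 was past 2-fold upward, Rbx1 was past it downward and 14 lay within it, and the median of 0.03 changed sign under other scalings, without centring for example (-0.07). Skp2, the ubiquitin ligase subunit that recognises p27, read 577.4 in Th2 KO and 296.6 in Th2 WT (1.06), with its 4 other measured probe sets between 0.51 and 1.45. Cks1b, the Skp2 cofactor for p27, was at 0.86, with 1.39 in its other probe set. Rbx1, the RING subunit of the same ligase, read 167.8 in Th2 KO and 374.5 in Th2 WT (-1.06). The FOXO factors that raise Cdkn1b transcription were at -0.84 for Foxo3, with -0.37 in its other probe set, and at -0.45 for Foxo1.

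Target genes of p53 other than Cdkn1a were also mixed, while Trp53 itself was not analysed here. Of 24 genes analysed, 1 passed 2-fold upward in Th2 KO, 2 passed it downward, 19 lay within it and 2 were below the floor on both arrays. Of the 22 measured on both arrays, 15 lay above 0 and 7 below, with a median of 0.25. Sesn2, a stress-induced sestrin, read 930.0 in Th2 KO and 462.1 in Th2 WT (1.11), with 1.12 in its other probe set, and Pmaip1, which encodes the death protein Noxa, was at 0.99. Its relative Sesn1 read 992.3 in Th2 KO and 2914.6 in Th2 WT (-1.45), and Xpc, a DNA repair gene, was at -1.09. Mdm2, which encodes the ligase for p53 that p19ARF binds, was at 0.50, with 0.81 in its other probe set.

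Among regulators and neighbours of the Cdkn2a locus, 2 of 23 genes passed 2-fold, upward in Th2 KO, and 21 lay within it. Over all genes that reached the floor on either array, 7.37% were at least 2-fold higher. The median of the list was -0.16, or -0.02 with probe sets averaged. The Polycomb gene Ezh2, whose product represses the locus by histone methylation, read 9532.8 in Th2 KO and 4601.8 in Th2 WT (1.15). Bmi1, another Polycomb repressor of the locus, was at 0.48. Cbx7, a reader of that histone mark, was at -0.89, and Kdm6b, a demethylase that removes the mark, at -0.92. The other gene past 2-fold, Mtap, is the immediate neighbour of Cdkn2a and encodes an enzyme of methionine salvage. It read 1159.2 in Th2 KO and 545.2 in Th2 WT (1.19), with its 3 other measured probe sets between 0.75 and 1.11. In the RefSeq order of protein-coding genes Mtap, Cdkn2a, Cdkn2b and Dmrta1 follow each other on chromosome 4, and Dmrta1 was below the floor on both arrays, at 8.5 in Th2 KO and 1.6 in Th2 WT.

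For all 7 inhibitors the nearest 3 protein-coding genes on each side were examined, 36 genes that are not inhibitors themselves. Of these, 18 reached the floor on both arrays and 5 on 1 array. At least 2-fold higher in Th2 KO were 2, Mtap and Tssc4, which lies near Cdkn1c (1.05), and at least 2-fold lower were 3. These were Stk38 (-1.03) and Cpne5 (-1.32), near Cdkn1a, and Ap1m2, next to Cdkn2d, with a bound of -1.06. Over all 11265 genes that reached the floor on either array, 7.37% were at least 2-fold higher and 4.45% lower. Srsf3, which adjoins Cdkn1a, was at 0.78, so genes around Cdkn1a lay on both sides of 0.

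Inputs from TGF-β, which can induce Cdkn2b and Cdkn1a, leaned lower. Of 14 genes analysed, 2 passed 2-fold, downward in Th2 KO, 11 lay within it and 1 reached the floor on neither array. The 12 genes measured on both had a median of -0.33. Tgfbr2, a receptor subunit, read 3099.2 in Th2 KO and 7191.4 in Th2 WT (-1.11). Tgfb3, a ligand, was below the floor in Th2 KO, with a bound of -2.46. The inhibitory Smad7 was at -0.95 with 0.44 in its other probe set, Smad4 at -0.41, and Zbtb17, which encodes the factor MIZ1 that activates Cdkn2b, at -0.61.

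Cdkn1c lies in an imprinted cluster, and 11 further genes of that cluster were analysed. Of these, 2 passed 2-fold, upward in Th2 KO, 4 lay within it and 3 were below the floor on both arrays. The other 2, Slc22a18 and Igf2, were below the floor in Th2 KO alone, with bounds of -0.60 and -0.31 that do not settle whether they passed 2-fold. The median of the 6 measured on both was 0.26, and -0.33 over all 11 when no floor was used. Cars, which encodes cysteinyl-tRNA synthetase, was at 1.40 and Tssc4 at 1.05. Cd81, a tetraspanin gene, was at 0.71 and the lipid transfer gene Osbpl5 at -0.87. Kcnq1ot1 is a noncoding RNA that silences Cdkn1c and part of the cluster on the paternal copy. It read 330.4 in Th2 KO and 579.4 in Th2 WT (-0.71), with -0.71 and -0.52 in its other probe sets.

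Among 9 other genes named for a CDK inhibitor or for a CDK partner none was past 2-fold, and their median of 0.02 changed sign under other scalings, to -0.08 without centring. Cdkn3, which encodes a phosphatase acting on CDKs and peaks in dividing cells, read 1589.5 in Th2 KO and 914.8 in Th2 WT (0.90). Cdk2ap1, which encodes a CDK2-associated protein, was at 0.89, with its other probe sets at 0.65 and 0.99. Cdk5rap3 was at 0.35 and Cdk5rap2 at -0.32.

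**Figure D4:**
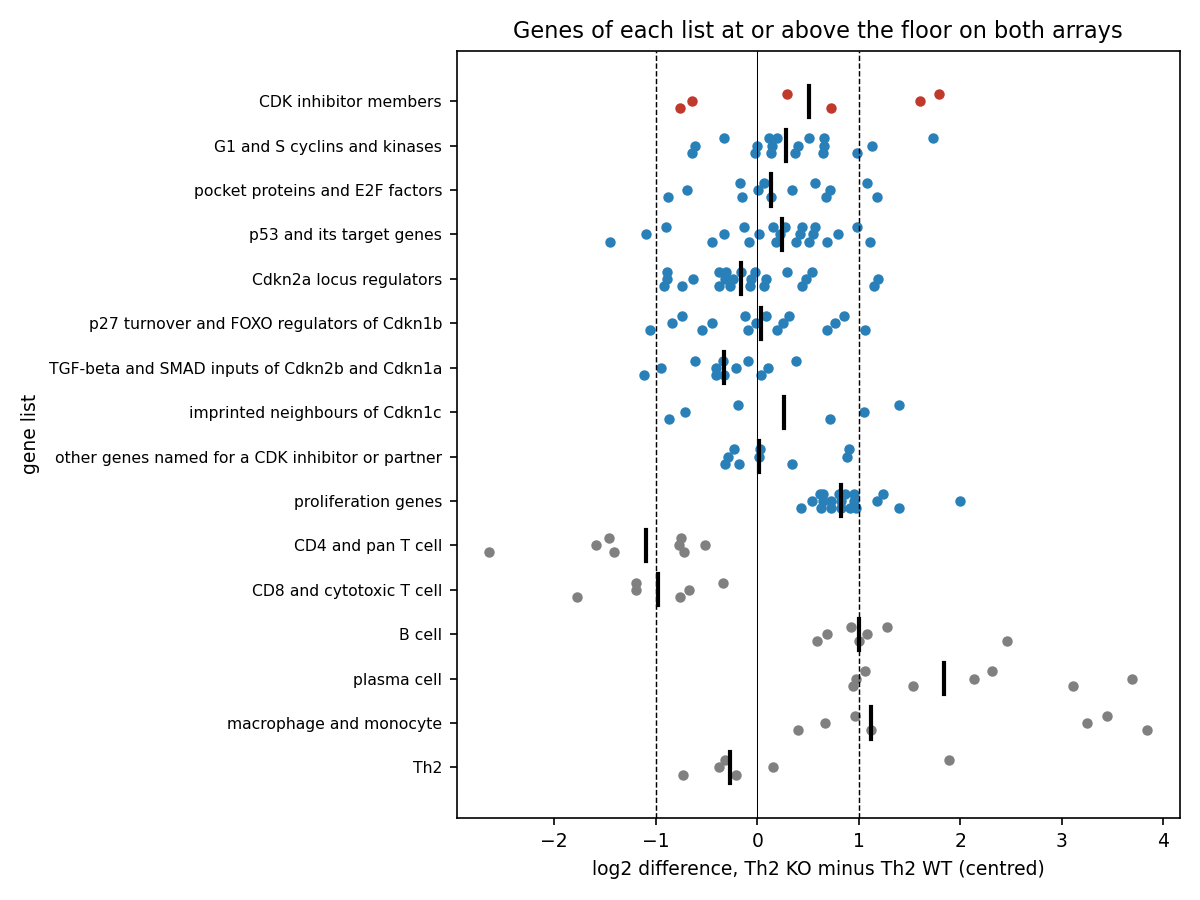
Centred log2 difference, Th2 KO minus Th2 WT, of each gene measured on both arrays, by list, with a black bar at each list's median and dashed lines at 2-fold. CDK inhibitors (red) spread from -0.76 to 1.79, cell division genes lie above 0 throughout, and marker lists of cell types (grey) run from a median of -1.09 for T cells to 1.84 for plasma cells.

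Markers of cell types other than T cells moved on the same arrays. The 8 T cell markers analysed all lay below 0 (median -1.09, 4 at least 2-fold lower), and their summed signal was 39976.2 in Th2 KO and 77305.8 in Th2 WT. All 9 plasma cell markers were higher or bounded higher, 7 at least 2-fold, with summed signals of 101202 in Th2 KO and 44849.7 in Th2 WT. Of 8 B cell markers analysed, 3 were at least 2-fold higher, 4 neither, and the defining marker Pax5 was below the floor on both arrays, with summed signals of 34469.9 in Th2 KO and 16987.9 in Th2 WT. Of 13 macrophage markers, 5 were at least 2-fold higher, 3 lay within 2-fold, 4 had bounds under 2-fold, and Itgam was below the floor on both arrays, with summed signals of 6932.0 in Th2 KO and 1354.4 in Th2 WT. C1qa, C1qc and Mrc1 were just over the floor in Th2 KO and below it in Th2 WT. Cdkn1a, Cdkn2a, Cdkn2b and Cdkn2c were higher in Th2 KO beside the plasma cell, B cell and macrophage markers. Cdkn1b and Cdkn2d were lower beside the T cell markers. The part of these cell types in the values of these inhibitors was not tested. In such bulk RNA, fewer cells of a type and less RNA per cell cannot be told apart.

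CD8 and cytotoxic markers were lower by their brightest probe sets, with 3 of 6 at least 2-fold lower and a median of -0.98. Of these 3, Cd8a was at -1.19, but its 3 other measured probe sets lay between -0.41 and 0.40. Natural killer markers had 1 of 4 analysed at least 2-fold lower, with Ncr1 below the floor on both arrays. Of 5 neutrophil markers analysed only S100a8 reached the floor, in Th2 KO, and of 4 mast cell and basophil markers only Cpa3 did. Of 7 Th2 genes analysed, 1 (Il13) was at least 2-fold higher, 5 lay within 2-fold and Il5 had a bound under 2-fold, with a median of -0.26 over the 6 measured on both arrays.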

How the data were processed

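The authors' deposited values are linear signal intensities, 1 per probe set and array (45101 probe sets, 64 of them controls). Per the labels, biotin-labelled cRNA was made from 3 µg of total RNA by the one-cycle Affymetrix assay. Summarisation software and genome build are not stated there. Both arrays shared a mean of 500.004 over the central 96% of probe sets, which shows a global scaling.

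Genes were named from the platform annotation, through probe sets with 1 symbol. The floor was each array's median. A gene took its brightest probe set. A signal below the floor on 1 array gave a bound against the floor, and no fold was given below it on both. With 1 array per group no test was run, genes past 2-fold were counted, and the number of arrays limits the precision. The named genes are all inhibitors, up to 4 genes per related list with the largest difference, and 19 partners fixed by name. Marker genes, neighbours and the genes with bounds were named outside this rule, after their values were seen. The inhibitors and the 9 related and 10 marker lists were chosen with earlier results of these data known. Alternatives were no centring, quantile normalization, loess (span 0.3), other floors, averaged probe sets, probe sets without _x_at and _s_at, and 1.5-fold. The procedure was tested on simulated data. Python 3.11.15, numpy 2.4.6, pandas 2.3.3 and statsmodels 0.14.6 were used.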

Additional observations from a re-analysis of the deposited data

How the results depend on the processing

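No paired analysis was possible because there was 1 array a group, and no replicate could be left out. Cdkn1a, Cdkn1b, Cdkn2c and Cdkn2d kept their direction and their side of 2-fold in all 7 settings other than the 1.5-fold threshold. Some of these settings could not have changed them. No inhibitor has an _x_at or _s_at probe set, so leaving those out changed no inhibitor value. Averaging could change only Cdkn1a and Cdkn1b, and leaving out the centring moved every gene by the same amount. Cdkn1a ranged from 1.68 to 1.79, Cdkn1b from -0.93 to -0.76, Cdkn2c from 0.63 to 0.73 and Cdkn2d from -0.81 to -0.65. Cdkn1c ranged from 0.19 to 0.36 and had no value with the floor at the 70th percentile, where both its signals lay below it. At that floor Cdkn2a had a bound of 1.43 and Cdkn2b a bound of 0.29, by construction of the bound, and 2 inhibitors instead of 3 were at least 2-fold higher. With no floor and an offset of 16, Cdkn2a was at 4.02. At 1.5-fold, 2 inhibitors were lower instead of none. The median of the list on p27 and FOXO changed sign without centring (-0.071), after quantile normalization (-0.00053), after loess (-0.00043), with no floor (-0.018) and when _x_at and _s_at probe sets were left out (-0.0071). That of other genes named for a CDK inhibitor or partner did so without centring (-0.083), after quantile normalization (-0.12), after loess (-0.12) and with no floor (-0.031), and that of the imprinted cluster with no floor (-0.33). The cause of these sign changes was not tested. Signals near the floor limit Cdkn1c, Cdkn2b and the Th2 WT value of Cdkn2a.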
